A study of Mus musculus with 8 samples.

Results

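The 41 genes described here are mouse DNA repair and checkpoint genes, chosen by symbol from a list of homologous recombination, Fanconi anemia, end joining, mismatch repair and checkpoint genes, and they are 41 of the 23361 genes in the deposited RNA-seq table. All 41 symbols were found, and the rule itself uses no measured value. The table compares gastric squamous-columnar junction (SCJ) cancers (n = 5) with SCJ control tissue (n = 3). The SCJ is the line where the squamous lining of the forestomach meets the glandular stomach. The cancers carried the genotype Trp53-/-Rb1-/-. In this model the allele Lgr5-eGFP-IRES-CreERT2, knocked in at Lgr5, expresses a tamoxifen-activated Cre in Lgr5+ stem cells, where it deletes floxed Trp53 and Rb1 and switches on the Ai9 tdTomato reporter, and the cancers were collected long after induction. The controls were labelled wild type and, per the study's methods, were age-paired. Each library holds bulk tissue, so a lower value from fewer cells of a type and one from less RNA per cell cannot be told apart. The labels give separate samples but no animal numbers, so the p-values measure the spread between these samples.

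Cells repair a broken chromosome by joining its ends or by homologous recombination, in which a resected end, prepared with the help of Brca1 and Brca2, copies an intact sister chromatid. The Fanconi anemia proteins remove crosslinks between DNA strands and pass the intermediates on to recombination. Atm and Atr sense breaks and stalled replication and act through the kinases Chek2 and Chek1 to hold the cell cycle. Many of these genes are transcribed most in cycling cells, under E2F factors that Rb1 restrains, while p53, the product of Trp53, is a target of the same checkpoint kinases.

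Because Rb1 was deleted, the promoters of the genes were read first for the letters of an E2F site, TTTNGCGC, and for CCAAT, the letters bound by NF-Y at many cell cycle promoters, on both strands. RefSeq windows (GRCm38.p6, the assembly of mm10) reaching from 250 bases before to 50 after a start were held for 32 of the 41 genes. TTTNGCGC lay in the windows of 3 of these 32 genes (9.38%), Topbp1, Rad51c and Chek2, against 9.21% of the other DNA repair genes, 33.3% of the proliferation genes and 1.57% of all 27025 genes with a window. CCAAT lay in 62.5% of the 32 genes, 50% of the other DNA repair genes, 86.7% of the proliferation genes and 41.1% of all genes. The stretches below show these 3 promoters, that of Xrcc3, which holds CCAAT 3 times, and that of Chek1, also higher in the cancers, which holds neither. Each covers 150 bases before the start and 24 after it, 5′ to 3′ on the strand of the gene, with TTTNGCGC and CCAAT on either strand in capitals. Rad51c has another annotated start, with its window at chr11:87404931-87405104, at which neither set of letters lies within the same distances. The letters are matches only and were not tested as binding sites. Only TTTNGCGC was counted as letters of an E2F site. Other spellings were not, such as TTTCCCGC, which can be read in the windows of Mdc1, Fancg and Msh6 among others.
Topbp1, chr9:103305177-103305350, plus strand: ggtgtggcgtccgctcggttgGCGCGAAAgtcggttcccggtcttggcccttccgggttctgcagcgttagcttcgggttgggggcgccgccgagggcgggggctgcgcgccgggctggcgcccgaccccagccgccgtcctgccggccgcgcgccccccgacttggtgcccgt
Rad51c, chr11:87404483-87404656, minus strand: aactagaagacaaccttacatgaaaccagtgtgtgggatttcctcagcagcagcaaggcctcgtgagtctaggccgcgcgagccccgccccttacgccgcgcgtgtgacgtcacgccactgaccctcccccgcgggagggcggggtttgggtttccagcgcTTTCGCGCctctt
Chek2, chr5:110839833-110840006, plus strand: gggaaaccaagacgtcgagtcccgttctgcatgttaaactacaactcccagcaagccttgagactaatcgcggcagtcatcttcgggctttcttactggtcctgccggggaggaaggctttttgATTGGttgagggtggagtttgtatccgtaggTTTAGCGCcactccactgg
Xrcc3, chr12:111813856-111814029, minus strand: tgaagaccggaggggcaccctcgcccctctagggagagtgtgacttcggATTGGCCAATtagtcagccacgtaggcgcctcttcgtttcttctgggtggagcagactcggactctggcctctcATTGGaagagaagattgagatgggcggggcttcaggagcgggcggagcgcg
Chek1, chr9:36726635-36726808, minus strand: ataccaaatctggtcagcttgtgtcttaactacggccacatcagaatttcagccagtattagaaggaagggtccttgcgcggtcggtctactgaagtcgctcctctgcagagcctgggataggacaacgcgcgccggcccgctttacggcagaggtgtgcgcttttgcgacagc
Of the 9 genes found higher in the cancers (below), 7 had a window, and TTTNGCGC lay in 1 of these 7 and CCAAT in 3. Among the 25 other genes with a window the counts were 2 and 17. The letters of the CHR element, TTTGAA, bound at late cell cycle genes, lay in 6.25% of the 32 genes and in 20.2% of all genes. They lay in 13.2% of the other DNA repair genes and 33.3% of the proliferation genes.

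Expression is given as FPKM (fragments per kilobase of transcript, corrected for the number of fragments mapped), deposited as whole numbers. The sum of FPKM over all genes was 403569 to 573858 in the cancers, against 887141 to 992550 in the controls, and the 10 most abundant genes held 11.1% to 19.6% and 39.3% to 44.3% of it. The groups also differed in cell makeup. Summed pit mucous markers were 690 to 67389 FPKM in the cancers, against 144019 to 211997 in the controls, with 1 of 5 markers past the threshold, and summed endocrine markers were 8262 to 18383 and 132 to 191, with 7 of 7 higher. Parietal markers summed to 0 in cancer 1 and to between 215 and 2663 in the rest of the cancers, against 6758 to 12589 in the controls. Squamous markers summed to 0 to 1671 in the cancers, with 0 in cancer 1, and to 1545 to 2589 in the controls. Chief cell markers summed to 13 to 10492 and 5046 to 46504, with 1 of 5 lower, and simple epithelium markers to 725 to 4650 and 5558 to 7755, with 1 of 5 higher and 2 lower. Macrophage markers summed to 34 to 65 in the cancers, each above the 13 to 14 of the controls, with 2 of 5 higher. Leukocyte markers (8 genes, 4 of them listed at 0 in all controls) summed to 217 in cancer 1, to between 2 and 13 in cancers 2 to 5 and to 5 in each control. Hepatocyte markers summed to 583 in cancer 5 and to at most 60 elsewhere. The part of these cells in the results below was not tested. The deleted genes were read as a check of the labels. Rb1 was 4, 4, 5, 6 and 4 FPKM in cancers 1 to 5 and 9, 9 and 10 in controls 1 to 3, so that every cancer lay lower (log2 fold change -0.90, limma adjusted p = 0.0059; -0.054 with equal library sums, adjusted p = 0.84). Trp53 was 12, 22, 12, 30 and 12 in the cancers, against 16, 17 and 19 in the controls, and the groups overlapped (limma adjusted p = 0.87; log2 fold change -0.08 as deposited, 0.86 with equal library sums and 0.13 with quantile normalization). Values per gene do not show which exons the reads came from.

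Of the 41 repair and checkpoint genes, 9 were higher in the cancers and 0 lower. The 9 were Chek1, Mdc1 and H2afx of the checkpoint group, Brca2, Bard1, Rad51c, Xrcc3 and Rad54b of the recombination group, and Slx4, the scaffold of the nucleases that cut joint molecules. The test was limma on log2(FPKM + 1) over 14357 genes, with an adjusted p under 0.05. The share of 22.0% higher stood beside a background of 16.2% higher and 18.3% lower over all genes tested. Of the 9, Brca2, Bard1, Xrcc3, Rad54b and Chek1 passed the filter on low values through the cancers. The count of 9 and its share are therefore a description only. With no filter on low values 7 of the 41 were higher (17.1%, against 13.5% of all genes tested). Every cancer lay above every control in 8 of the 41, where the background was 14.4%, and every cancer lay below every control in 0, where it was 19.8%. At an unadjusted p under 0.05, 16 were higher and 0 lower. The share of all genes at that unadjusted threshold was not taken, so these counts, and others at it below, cannot be weighed. The median log2 fold change was 0.38 (0.36 without Brca2, which is listed at 0 in the controls), and -0.04 over all genes tested; 34 of the 41 lay above that all-gene median.

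**Figure D1:**
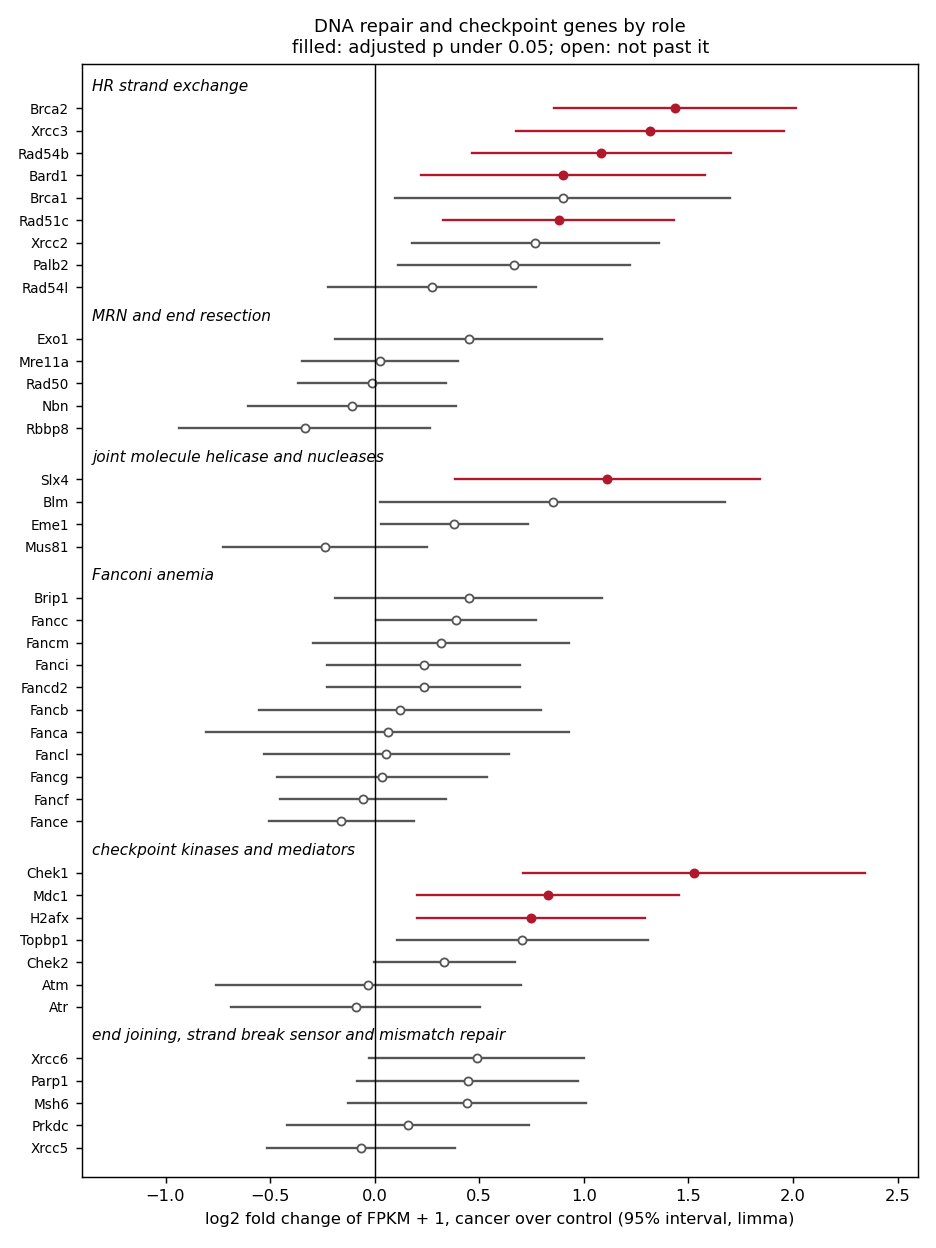
Log2 fold change of FPKM + 1, cancer (n = 5) over control (n = 3), for the 41 genes grouped by role, with 95% intervals from limma; filled points had an adjusted p under 0.05. The 9 filled points lie in the recombination, joint molecule and checkpoint groups, and the Fanconi anemia and resection groups hold 0; Brca2 is listed at 0 in every control, so its position depends on the added 1.

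Most of these genes were scarce. Their median was 3 FPKM in the cancers, against 2 in the controls, 29 of the 41 had a mean under 5 FPKM over the 8 libraries, and 9 of the 41 were listed at 0 in at least 1 control and passed the filter on low values through the cancers. Those 9 were Brca2, Bard1, Palb2, Xrcc3, Rad54b, Exo1, Blm, Brip1 and Chek1. Among the 29 scarce genes 7 were higher (24.1%), against 21.3% of all genes tested with a mean under 5 FPKM. Since the values were deposited as whole numbers, a value of 1 can stand for anything within 0.5 of it. Moving every cancer down and every control up by 0.5, the least favourable case and one chosen after seeing the data, left 0 of the 41 higher, against 8.15% of all genes tested. Moving the values the opposite way gave 25 higher (61.0%), against 32.0% of all genes. The ratio of the group means stayed above 1 within that rounding for 17 of the 41, including all 9 called genes. In each of the 8 genes without overlap the lowest cancer lay 1 FPKM, a single step of the scale, above the highest control.

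The role groups are described by their counts, which are small, beside the shares of all genes called higher, 16.2% as deposited, 49.98% with the libraries rescaled to equal sums and 13.2% with quantile normalization. Of the 9 homologous recombination genes 5 were higher. Of these 5, Brca2, Bard1, Xrcc3 and Rad54b passed the filter on low values through the cancers, so the count and the p-values of these 4 are a description only. With no filter on low values the limma adjusted p was 0.0064 for Brca2, 0.012 for Xrcc3, 0.021 for Rad54b and 0.052 for Bard1. With quantile normalization 2 of the 9 were higher and with equal library sums 9, with medians of 0.51 and 1.68. As deposited, the median log2 fold change was 0.90 and all 9 fitted changes were positive, with Rad54l below 0 after quantile normalization. Brca2 (chr5:150522297-150570147), which prepares resected ends for strand exchange, was 3, 1, 2, 1 and 2 FPKM in cancers 1 to 5 and was listed at 0 in all 3 controls. The groups did not overlap (limma adjusted p = 0.0058; two-sided exact permutation p = 0.018, the smallest that 5 against 3 allow), and no fold is given because the controls are at 0. Xrcc3 (chr12:111803192-111813893), which acts in strand exchange, was 3, 3, 4, 3 and 2 FPKM in the cancers, against 1, 0 and 1 in the controls. Its lowest cancer lay above its highest control, with a log2 fold change of 1.31 (SE 0.28, limma adjusted p = 0.011). Rad51c (chr11:87376645-87404954), which forms a complex with Xrcc3, was 4, 2, 4, 2 and 2 FPKM in the cancers and 1 in every control. Cancers 1 and 3 were the high ones, and the groups did not overlap (log2 fold change 0.88, SE 0.24, limma adjusted p = 0.026).

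Rad54b (chr4:11558920-11615808), a motor protein of the Rad54 family that acts during strand exchange, was 3, 2, 3, 2 and 2 FPKM in the cancers, against 1, 1 and 0 in the controls. The groups again did not overlap (log2 fold change 1.08, SE 0.27, limma adjusted p = 0.019). Xrcc3 and Rad54b share their locus entries with Klc1 and Fsbp, so reads of these overlapping genes may not be fully separated in the values. Bard1 (chr1:71027535-71103141), the partner of Brca1 in a ubiquitin ligase, was 2, 1, 2, 1 and 1 FPKM in the cancers, against 1, 0 and 0 in the controls. It was the called gene whose groups overlapped, control 1 being level with cancers 2, 4 and 5 (log2 fold change 0.90, SE 0.29, limma adjusted p = 0.047; exact permutation p = 0.071). Bard1 passed the threshold in 1 of the 8 fits that left out 1 library, with adjusted p from 0.021 without control 1 to 0.15 without control 2. Rad51c lost the threshold without control 1, 2 or 3 (adjusted p up to 0.080), whereas Brca2, Xrcc3 and Rad54b passed it in all 8 fits. With a pseudocount of 0.1 Rad54b lost the threshold (adjusted p = 0.057), and without the filter on low values Bard1 and Mdc1 lost it.

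The other 4 recombination genes did not pass the threshold. Brca1, which promotes resection and the recruitment of Brca2, was 5, 1, 4, 2 and 3 FPKM in the cancers and 1 in every control. Cancer 2 was level with the controls, and the other cancers were above them (log2 fold change 0.90, SE 0.35, limma adjusted p = 0.076). Xrcc2, also of this group, was 4, 2, 4, 2 and 3 FPKM against 2, 1 and 1, and narrowly missed the threshold (log2 fold change 0.77, limma adjusted p = 0.050). Palb2, which joins Brca1 to Brca2, was 1 FPKM in every cancer and 1, 0 and 0 in the controls, a difference of no more than 1 step of the scale. Rad54l, the other motor of this family, was 2, 2, 2, 2 and 1 FPKM in the cancers, against 2, 1 and 1 in the controls (95% interval of the log2 fold change -0.22 to 0.77).

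**Figure D2:**
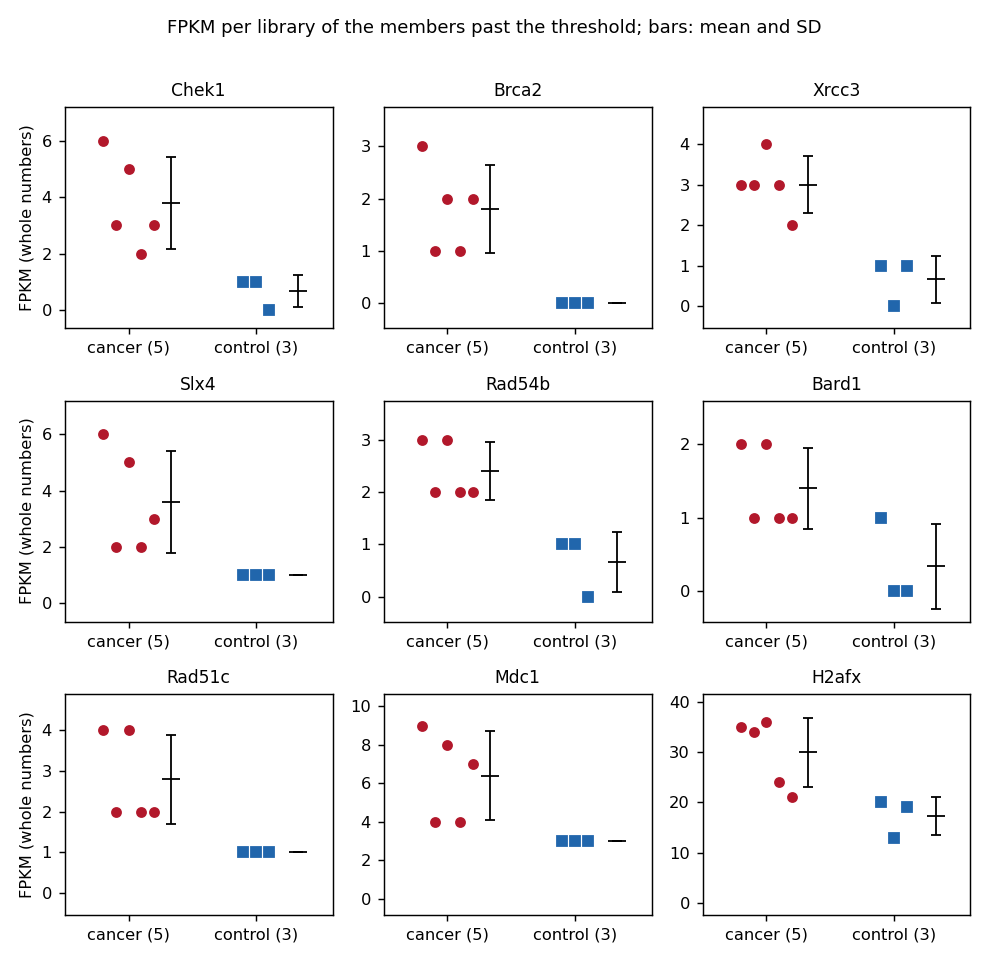
FPKM of each library for the 9 genes past the threshold, cancers in circles in the order 1 to 5 and controls in squares in the order 1 to 3, with the mean and SD of each group beside them. The groups do not overlap except for Bard1, and H2afx is the only panel with values above 9 FPKM.

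The checkpoint group held H2afx, the most abundant of the 9 genes. Of 7 genes 3 were higher, with a median log2 fold change of 0.71. Among them, Chek1 passed the filter on low values through the cancers, so this count and the p of Chek1 are a description as well (limma adjusted p = 0.017 for Chek1 with no filter). With equal library sums 5 were higher and with quantile normalization 2. Chek1 (chr9:36708482-36726658), the effector kinase of Atr, was 6, 3, 5, 2 and 3 FPKM in the cancers, against 1, 1 and 0 in the controls. Every cancer exceeded every control, with cancers 1 and 3 the highest (log2 fold change 1.53, SE 0.35, limma adjusted p = 0.015). H2afx (chr9:44334715-44336077), the histone variant that is phosphorylated around breaks, was 35, 34, 36, 24 and 21 FPKM in the cancers, against 20, 13 and 19 in the controls. The groups did not overlap (log2 fold change 0.75, SE 0.23, limma adjusted p = 0.043). Mdc1 (chr17:35841495-35859670), the adaptor that binds phosphorylated H2afx protein, was 9, 4, 8, 4 and 7 FPKM in the cancers and 3 in every control. Its cancers split into 3 higher and 2 near the controls (log2 fold change 0.83, SE 0.27, limma adjusted p = 0.048).

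These calls depended on the libraries to different degrees. Chek1 lost the threshold in 1 of the 8 fits, without control 3 (adjusted p = 0.055). Mdc1 and H2afx each passed in 2 of 8, losing the threshold without cancer 1 (adjusted p = 0.079 and 0.081), without cancer 3 and without any control, with adjusted p up to 0.12 for Mdc1 and 0.15 for H2afx, and also without cancer 5 for Mdc1 and cancer 2 for H2afx.

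The upstream kinases did not pass the threshold. Atm, which responds to breaks, was 5, 2, 5, 2 and 5 FPKM in the cancers, against 4, 4 and 3 in the controls (log2 fold change -0.03, 95% interval -0.76 to 0.70). Atr, which responds to exposed single strands, was 2, 1, 3, 3 and 2 FPKM against 2, 3 and 2 (log2 fold change -0.09, 95% interval -0.68 to 0.51). The cancers of Atm lay on either side of its controls, and those of Atr lay within the range of its controls except cancer 2, which was below it. Topbp1, the activator of Atr, was 19, 8, 15, 11 and 12 FPKM in the cancers, against 8, 8 and 6 in the controls. Cancer 2 equalled the highest controls and the other cancers exceeded them (log2 fold change 0.71, SE 0.26, limma adjusted p = 0.067). Chek2, the effector kinase of Atm, was 2, 3, 3, 3 and 3 FPKM in the cancers and 2 in every control (log2 fold change 0.33, limma adjusted p = 0.11).

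Among the genes that process joint molecules, 1 of 4 was higher, against 3 with equal library sums and 0 with quantile normalization. Slx4 (chr16:3979105-4003829) was 6, 2, 5, 2 and 3 FPKM in the cancers and 1 in every control. The groups did not overlap, and the spread among the cancers was wide (log2 fold change 1.11, SE 0.32, limma adjusted p = 0.031). It lost the threshold in 5 of the 8 fits that left out a library, namely without cancer 3, cancer 5 or any control, with adjusted p up to 0.092. Blm, a helicase that dissolves joint molecules, was 3, 1, 3, 2 and 1 FPKM against 1, 1 and 0 (log2 fold change 0.85, limma adjusted p = 0.096). Mus81 and Eme1, which form a nuclease together, gave log2 fold changes of -0.24 (95% interval -0.72 to 0.25) and 0.38 (0.03 to 0.73). Eme1 was 7, 7, 6, 7 and 5 FPKM in the cancers, against 5, 4 and 5 in the controls, and only cancer 5 fell within the control range.

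Brca2, Rad51c and Slx4, which were called, and Brca1, Palb2 and Xrcc2, which were not, are also known as Fanconi anemia genes. All are described above. The group here holds 11 further Fanconi anemia genes. Limma called 0 of these 11 in either direction as deposited, against 4 higher with equal library sums. An unadjusted p under 0.05 was found for 1 of them (Fancc). The median of the 11 was 0.12 as deposited, -0.15 with quantile normalization and 0.89 with equal library sums. Their fitted changes ran from -0.16 for Fance to 0.45 for Brip1. Fancd2 and Fanci, the pair that is ubiquitylated at crosslinks, had the same whole numbers, 2, 1, 2, 1 and 1 FPKM in the cancers and 1 in every control (log2 fold change 0.23). Cancers 1 and 3 were above the controls and the other 3 were level with them. Fancc, of the core complex, was 2 FPKM in every cancer and 1, 1 and 2 in the controls, with a limma adjusted p of 0.0996. Fance, also of the core complex, was 6, 7, 6, 7 and 6 FPKM against 6, 7 and 9, with overlapping groups. Fanca had the widest interval of the group, from -0.81 to 0.93.

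The genes that start resection, the MRN complex of Mre11a, Rad50 and Nbn with Rbbp8 and Exo1, also held 0 calls in limma as deposited, 0 at an unadjusted p under 0.05 as well, against 4 of 5 higher with equal library sums, where 49.98% of all genes were called higher, with a group median of -0.01 as deposited, -0.089 with quantile normalization and 0.82 with equal library sums. Rad50, the ATPase of the complex, was 4, 3, 4, 5 and 4 FPKM in the cancers and 4 in every control (95% interval of the log2 fold change -0.36 to 0.34). Nbn was 11, 8, 11, 11 and 6 FPKM against 10, 11 and 9 (95% interval -0.60 to 0.39). Both sets of controls lay inside the range of the cancers. Rbbp8, the cofactor that starts resection, had the lowest fitted change of the 41, at -0.33 (limma adjusted p = 0.33), with 9, 5, 11, 10 and 7 FPKM in the cancers, against 12, 12 and 8 in the controls. Exo1, the nuclease that extends resection, was 2 FPKM in cancer 1, 1 in the other cancers and 1, 1 and 0 in the controls.

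The remaining 5 genes act in end joining, in sensing strand breaks and in mismatch repair. They were the most abundant group, with a median of 12.8 FPKM in the cancers and 11.0 in the controls, and 0 of 5 passed the threshold as deposited, against 4 of 5 higher with equal library sums and 0 with quantile normalization. Xrcc6 and Xrcc5, which encode the Ku proteins that bind broken ends as a pair, gave log2 fold changes of 0.49 (limma adjusted p = 0.12) and -0.07. Xrcc6 was 19, 20, 17, 15 and 10 FPKM in the cancers, against 11, 12 and 10 in the controls, so that only cancer 5 reached the control range. Parp1, the sensor of strand breaks, was 25, 15, 14, 12 and 15 FPKM against 10, 13 and 11 (log2 fold change 0.44, limma adjusted p = 0.16). Msh6, which recognizes mismatched bases, was 16, 8, 12, 8 and 11 FPKM against 8, 9 and 6 (log2 fold change 0.44, limma adjusted p = 0.19). Prkdc, the kinase that Ku recruits, was 3, 1, 2, 2 and 2 FPKM against 1, 2 and 2.

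The cancers differed among themselves. Cancer 1 was highest or tied for highest of the 5 cancers in 30 of the 41 genes and cancer 3 in 17, while cancers 2, 4 and 5 were lowest or tied for lowest in 27, 22 and 22. The mean log2(FPKM + 1) of the 41 genes was 2.52, 2.01, 2.40, 2.11 and 2.08 in cancers 1 to 5 and 1.92, 1.81 and 1.67 in controls 1 to 3. Each cancer was above each control on this mean level, cancer 2 by the smallest margin. Over the 32 genes that were not called, cancer 2, at 2.005, lay below control 1 (2.075) and control 2 (2.008), and the other cancers lay above every control. The genes were split by a call made on these same values, so a smaller gap over the 32 followed from the split. It does not show what the separation rests on. Cancer 1 was also the library with the lowest sum of FPKM and with the leukocyte marker signal, whose part in its level was not tested. Markers of the glandular stomach were highest among the cancers in cancers 2 and 4, with pit mucous sums of 67389 and 44081 FPKM (690 to 14745 in the others), chief cell sums of 5262 and 10492 (13 to 1079) and parietal sums of 1526 and 2663 (0 to 296), whereas squamous markers summed to 16 in cancer 2 and 1671 in cancer 4 (0 to 503). Smooth muscle markers summed to 1692 in cancer 2, to 43 to 549 in the other cancers and to 355 to 549 in the controls, and fibroblast markers to 62 to 329 and 72 to 133. The part of these cells in the levels of cancers 2 and 4 was not tested. Without cancer 1, 7 of the 41 genes were higher (17.1%, against 13.6% of all genes), and these included 6 of the 9 called genes, Bard1, Mdc1 and H2afx being lost and Chek2 gained. Without cancer 5, the library with the hepatocyte markers, 8 were higher (19.5%, against 15.1% of all genes), 6 of them among the 9.

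**Figure D3:**
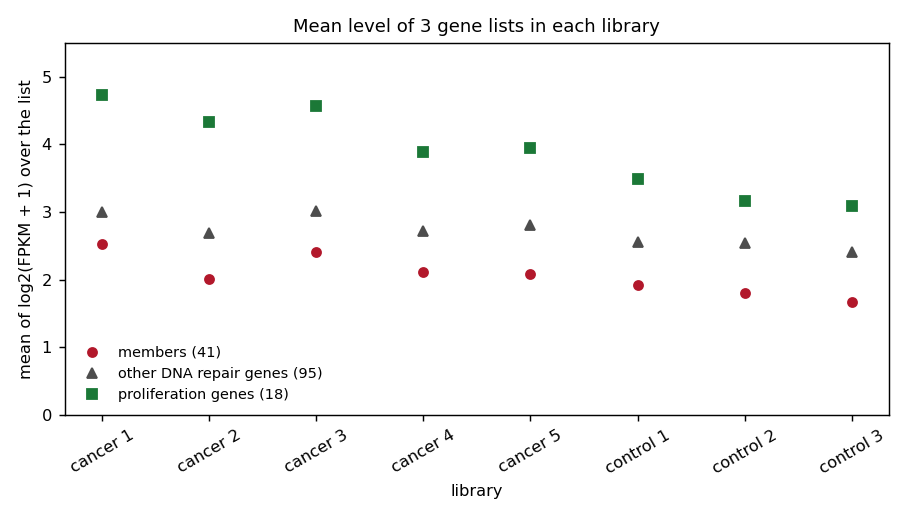
Mean of log2(FPKM + 1) in each library over the 41 repair and checkpoint genes, 95 other DNA repair genes and 18 proliferation genes. In all 3 lists each cancer lies above each control. The 41 genes run from 2.01 to 2.52 in the cancers and from 1.67 to 1.92 in the controls. Over the 32 genes that were not called, a split made on these same values, cancer 2 lies below controls 1 and 2.

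Proliferation genes were read beside these levels. Of 18 such genes 11 were higher, where 16.2% of all genes were, 0 were lower and 7 did not pass the threshold, with a median log2 fold change of 0.99. With quantile normalization 12 were higher (13.2% of all genes) and with equal library sums 18 (49.98% of all genes). Their mean level was 4.73, 4.33, 4.57, 3.88 and 3.95 in cancers 1 to 5 and 3.49, 3.16 and 3.08 in controls 1 to 3. Cancers 1 and 3 were again the highest. E2f1, a transcription factor that Rb1 restrains, was 15, 9, 13, 6 and 13 FPKM against 1, 2 and 2 (log2 fold change 2.16, limma adjusted p = 0.0028). Pcna, the sliding clamp of replication, was 199, 194, 223, 157 and 123 FPKM against 107, 92 and 88 (log2 fold change 0.87, limma adjusted p = 0.018; 0.066 without control 2 and 0.067 without control 3). Mki67 and Top2a, markers of cycling cells, gave log2 fold changes of 0.86 and 1.13 and adjusted p of 0.057 and 0.056. How much of the difference in the repair genes goes with the share of cycling cells was not tested.

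The other repair genes were read from a list of 95 that holds none of the 41. Of these, 25 were higher (26.3%, against 16.2% of all genes) and 4 lower (18.3% of all genes), with a median log2 fold change of 0.33. With quantile normalization 21 were higher and 5 lower, and with equal library sums 75 and 0. Base excision repair, which replaces damaged bases, held 8 higher of 15, other recombination and crosslink genes 7 of 19, and other checkpoint genes 6 of 20 with 1 lower. Lesion bypass and direct reversal held 3 higher and 1 lower of 12, and other end joining genes 1 higher and 1 lower of 9. Nucleotide excision repair, which removes bulky lesions, held 0 higher and 1 lower of 14, and mismatch repair 0 of 6. Among the genes counted as higher, Rmi2, Polq, Neil2 and Mutyh passed the filter on low values through the cancers. The counts that include them, in base excision repair, in other recombination and crosslink repair and in the 25, are a description only.

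The largest rises past the threshold on the log2(FPKM + 1) scale were those of Neil3, Tipin, Ube2t, Rad51ap1 and Timeless, all without overlap between groups. This order holds for the added 1 only, since genes listed at 0 in all controls, have no fold. Those past the threshold were Rmi2, Neil2, Mutyh and Polq, named after their values were seen. Tipin, which with Timeless stabilizes replication forks and aids Chek1 activation, was 48, 25, 52, 30 and 32 FPKM in the cancers, against 11, 11 and 7 in the controls (log2 fold change 1.82, limma adjusted p = 0.0038). Timeless was 6, 4, 6, 3 and 3 FPKM against 1 in every control (log2 fold change 1.39). Ube2t, the enzyme that conjugates ubiquitin to Fancd2 and Fanci, was 9, 7, 8, 5 and 5 FPKM against 2, 1 and 1 (log2 fold change 1.74, limma adjusted p = 0.0028), beside the values of Fancd2 and Fanci given above. Rad51ap1, which promotes strand exchange, and Neil3, a glycosylase, rose by log2 fold changes of 1.43 and 1.96.

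The 4 genes that fell were Wee1, Polk, Ercc3 and Lig3. Wee1, the kinase that holds cells before mitosis, was 10, 8, 9, 6 and 10 FPKM in the cancers, against 16, 23 and 23 in the controls (log2 fold change -1.18, limma adjusted p = 0.0055). Every cancer lay below every control, the opposite direction to Chek1, which acts in the same checkpoint. Ercc3, a helicase of nucleotide excision repair, was 10, 12, 10, 11 and 10 FPKM against 18, 17 and 17 (log2 fold change -0.66). Polk, a bypass polymerase, and Lig3, a ligase counted here with end joining, fell by 0.69 and 0.52 on the log2 scale. With each library rescaled to the same sum, 0 of these 4 passed the threshold, Wee1 being at -0.27, Polk at 0.098, Ercc3 at 0.25 and Lig3 at 0.35. With quantile normalization the log2 fold change was below 0 and past the threshold for all 4. Polk lost the threshold without cancer 3, control 1 or control 2 and Lig3 without any 1 of the controls (adjusted p up to 0.069 and 0.064).

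Partners of the 41 genes were mixed. Trp53bp1, which favours end joining over resection, was 13, 6, 12, 8 and 11 FPKM in the cancers, against 5, 5 and 4 in the controls (log2 fold change 0.92, limma adjusted p = 0.026). The groups did not overlap, and the threshold was lost without cancer 3, cancer 5 or any 1 of the controls (adjusted p up to 0.092). Rad51b and Rad51d, which act in a complex with Rad51c, had log2 fold changes of -0.40 and -0.17 as deposited, that of Rad51d being 0.60 with equal library sums, beside 0.88 for Rad51c. These differences between genes were not tested. Xrcc4, an end joining factor, and Clspn, a mediator of Chek1 activation, had log2 fold changes of 0.48 and 0.81 and Lig4, the ligase of end joining, of -0.43 (0.32 with equal library sums), and 0 of these 3 passed the threshold as deposited. With equal library sums Xrcc4 and Clspn passed it (1.38 and 1.63, limma adjusted p = 0.0092 and 0.014).

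The direction of the group as a whole depended on how the libraries were scaled. With the libraries rescaled to equal sums (TPM), the median over all genes tested moved to 0.81 and 49.98% of genes were called higher and 3.68% lower, so that 93.1% of all calls were higher, against 47.0% as deposited. On that scale 29 of the 41 genes were higher (70.7%) and 0 lower, the median was 1.08 and 32 lay above the all-gene median. With quantile normalization 4 of the 41 were higher (9.76%), against 13.2% of all genes tested. They were Brca2, Chek1, Xrcc3 and H2afx, with log2 fold changes of 1.17 for Chek1, 0.90 for Xrcc3 and 1.04 for H2afx. The median of the 41 was then -0.010, with -0.0080 over all genes, and 20 of the 41 lay above it. Those 4 genes were called under all 3 scalings, and the fitted change of each of the 9 called genes was positive under all 3. Brca2, Chek1 and Xrcc3 passed the filter on low values through the cancers in these fits, and the 9 were picked as higher in these same values. Both statements are therefore a description only.

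**Figure D4:**
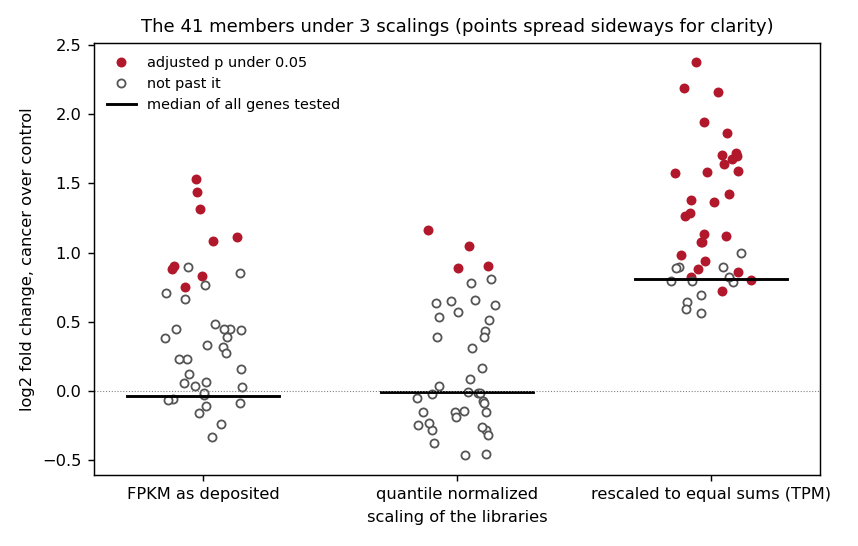
Log2 fold change, cancer over control, of the 41 genes under 3 scalings of the libraries; filled points had a limma adjusted p under 0.05 and the black line is the median of all genes tested. The genes lie mostly above the line as deposited (34 of 41) and with equal sums (32 of 41), and on both sides of it after quantile normalization (20 of 41 above).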

How the data were processed

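RNA was measured in 5 SCJ cancers and 3 SCJ controls. Per the labels, directional libraries were made after polyA selection. Reads were processed, per the submitters' notes, with cutadapt 1.8, TopHat2 2.0.13 and Cuffnorm 2.2.1 on mm10. The authors deposited FPKM per gene rounded to whole numbers (100% of values), a unit handled as a score since it is no read count, so depth per library is unknown. Whether counting used strand is not given in the sources used here.

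A gene was tested if 3 or more samples had FPKM of 1 or more (14357 genes). The test ran on log2(FPKM + 1), a scale that understates changes of low genes, in limma 3.58.1 under R 4.3.3, using lmFit and trended eBayes, with p-values adjusted by Benjamini-Hochberg and called under 0.05, after a check on simulated data. The exact permutation tests were two-sided over 56 splits. The members, the gene lists and the rule for naming genes were chosen with earlier results of these data known. The rule allowed all 41 genes, the 5 largest rises and up to 5 largest falls among the other repair genes, a set of partner genes, some of which are not reported here, Trp53, Rb1 and 4 proliferation genes. RefSeq entries were matched for 41 of 41 genes. The alternatives were another pseudocount, filters, scalings, variance models, array weights, a replicate block and leaving out each sample. The rounding bound was added after seeing the data.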

Additional observations from a re-analysis of the deposited data

Results flagged for a closer look

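In 5 of the 64 values examined, 1 cancer stood apart from the other 4 by more than 0.71 of the range of the cancers, where chance alone gives about 3.2. They were Rad54l (cancer 5 low), Exo1, Fancf and Brip1 (cancer 1 high) and Chek2 (cancer 1 low). In each of these genes the other 4 cancers held the same whole number and the remaining cancer differed from it by 1 FPKM, so the gap as a share of the range was 1, the highest it can be. A difference of 1 FPKM is 1 step of the deposited scale, and none of the 5 genes passed the threshold in limma.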

How the results depend on the processing

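As deposited, 4948 of all genes changed, and 9 of the 41 genes were higher, beside 25 higher and 4 lower of the other repair genes. With equal library sums (TPM) these counts were 7704, 29, 75 and 0 and the median of the 41 was 1.08, and with array weights they were 8148, 17, 40 and 10. The members higher were 70.7% of the 41 with TPM, against 49.98% of all genes, and 41.5% with array weights, against 27.2%. With a mean FPKM of at least 5, 1 of the 12 members tested (8.33%, against 13.6% of all genes tested) and 15 other repair genes were higher. Quantile normalization left 4 members higher and turned their median to -0.010. The rounding bound left 0 higher. Leaving out each sample gave 2548 to 5232 genes changed, 4 to 10 members higher and 16 to 32 higher and 2 to 6 lower of the other repair genes; the members numbered 5 without cancer 3, 4 without control 2 and 4 without control 3, and the genes changed numbered 2548, 2700 and 2874 without controls 1, 2 and 3. Members lower stayed at 0 in every fit. A replicate block gave 1534 genes changed, 0 members higher, against 6.84% of all genes, and 9 higher and 1 lower of the other repair genes. At an unadjusted p under 0.05 the block had 11 members higher, with no share of all genes taken. Samples of a shared number did not deviate together (correlations of -0.02, -0.19 and -0.10). These values cannot exclude that the numbers pair the samples.

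Of the values of single members, 497 kept direction and side of the threshold, 46 no longer passed it, 35 newly passed it and 49 turned direction, in 23 members and 0 of the 9 called. The 9 were picked as higher in these same values, so their keeping direction is a description only. With TPM the log2 fold change was 0.82 for Rad50, 0.80 for Nbn, 0.56 for Rbbp8, 0.59 for Mus81, 0.72 for Fance, 0.69 for Fancf, 0.79 for Atm, 0.64 for Atr and 0.86 for Xrcc5, and those of Rad50, Nbn, Fance and Xrcc5 passed the threshold. With quantile normalization it was -0.15 for Rad54l, Fancd2 and Fanci, -0.089 for Mre11a, -0.015 for Exo1 and Brip1, -0.28 for Fanca, -0.26 for Fancb, -0.023 for Fancc, -0.32 for Fancg, -0.053 for Fancm, -0.073 for Chek2, -0.23 for Prkdc and 0.084 for Xrcc5. Array weights gave 0.020 for Fancf, -0.11 for Fancl and 0.081 for Atm, and the replicate block 0.037 for Atm. Leaving out each sample gave -0.061 to 0.078 for Mre11a, -0.080 to 0.066 for Rad50, -0.18 to 0.026 for Nbn, -0.26 to 0.41 for Fanca, -0.049 to 0.32 for Fancb, -0.14 to 0.083 for Fancf, -0.10 to 0.12 for Fancg, -0.23 to 0.20 for Fancl, -0.14 to 0.12 for Atm, -0.18 to 0.069 for Atr, -0.19 to 0.045 for Xrcc5 and -0.034 to 0.30 for Prkdc. Of the values of the other genes named, 281 kept direction and side, 24 no longer passed the threshold, 13 newly passed it and 10 turned. With TPM those turned were Polk (0.098), Ercc3 (0.25), Lig3 (0.35), Rad51d (0.60), Lig4 (0.32) and Trp53 (0.86, past the threshold), and Trp53 was 0.13 with quantile normalization and ranged from -0.29 to 0.027 over the fits that left out a sample. The cause of these turns was not tested. With values of a few whole FPKM in most members, differences of 1 FPKM could not be resolved, and no counting error can be given.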
